A study of Mus musculus with 3 samples.

Results

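The mitochondrial respiratory chain and ATP synthase are assembled from subunits encoded in both the nucleus and the mitochondrion. Their genes were chosen by symbol from the deposited gene list (Nduf followed by A, B, C, S or V and a digit, Cox4 to Cox8, Uqcr, Atp5, Sdha to Sdhd, and the protein-coding genes of the mitochondrial genome) and made up 98 of 32285 genes. Of these, 85 were nuclear and 13 were mitochondrial. The rule itself used symbols and no measured value, but it was set with earlier results of these data known. GENCODE vM21 places all 98 on GRCm38 and lists 97 of them as protein-coding. The exception is Ndufb1-ps, on chromosome 12 from 101968090 to 101977068, which is listed there as a long non-coding RNA from a bidirectional promoter.

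Complexes I and II pass electrons from NADH and succinate to ubiquinone, complex III passes them to cytochrome c, and complex IV passes them to oxygen. The proton gradient made by complexes I, III and IV drives ATP synthase, here called complex V. The mitochondrial genome encodes core membrane subunits of every complex except complex II, and all other subunits are nuclear. Several subunits of complex IV exist as pairs of a common and a tissue-restricted form encoded by separate genes.

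The cells came from the synovium and fat pad of the mouse knee, in a surgical model of post-traumatic osteoarthritis in which the medial meniscus is destabilised (DMM). All mice carried the genotype given as wt. The control tissue was taken at 2 months of age. The other groups were operated at 2 months of age and harvested 1 week or 2 months afterwards, so the mice of the 2-month group were older than the controls at harvest. The sources used here do not say whether the controls had a sham operation. Each group was represented by 1 droplet-based 10x 3′ library, made from sorted live cells of 5 to 10 mice combined, so no test between groups was possible. The 95% intervals given with the values reflect counting error only and leave out variation among mice and preparations.

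The 3 libraries held 9003 control, 13986 1-week and 10799 2-month cell barcodes with 96782789, 179561680 and 159333121 unique molecular identifiers (UMIs, each marking 1 captured molecule). A barcode was kept if 500 genes or more were detected in it and mitochondrial UMIs made up no more than 10%. Between 28 and 33 barcodes were shared by each pair of libraries, at most 0.367% of the smaller one. Fibroblasts were barcodes with at least 1 UMI of Pdgfra and none of Ptprc or Cdh5 (3781, 4748 and 5317 cells in the control, 1-week and 2-month libraries). Endothelium was defined by at least 1 UMI of Cdh5 and none of Ptprc (1270, 1784 and 1157 cells), and macrophages by at least 3 UMIs of C1qa (1101, 1969 and 894 cells). The median fibroblast had 13153, 16492 and 16085 UMIs in the 3 libraries.

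Marker genes followed the class names, with some mixture. Of the endothelial barcodes, 20.6%, 20.4% and 21.3% also held Pdgfra, and the summed level of 5 fibroblast markers there was 5885, 11481 and 4691 CPM (UMIs per 1000000 UMIs of the class), against 21925, 38692 and 20356 CPM in fibroblasts. In the macrophage class, 4 neutrophil markers summed to 71.9, 692 and 4430 CPM, none of them at 0. Values below are CPM of the summed UMIs of a class within a library unless stated otherwise.

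The summed level of the 13 mitochondrial genes was higher in both operated libraries than in the control in every class. In fibroblasts it was 19185 CPM in the control, 37862 CPM at 1 week and 36548 CPM at 2 months. These levels were 1.97 times (1.97 to 1.98) and 1.91 times (1.90 to 1.91) the control. In endothelium the sum was 22733, 38290 and 37750 CPM, or 1.68 times (1.68 to 1.69) and 1.66 times (1.65 to 1.67) the control. Fibroblasts and endothelium therefore had nearly the same level at both times after surgery. Macrophages differed in their course, with 20479, 31394 and 42154 CPM. Their 2-month sum was 2.06 times (2.05 to 2.07) the control and 1.34 times (1.34 to 1.35) that at 1 week. The neutrophil markers in this class, given above, were also highest at 2 months, and their part in this difference was not tested.

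The 85 nuclear genes moved far less. Their summed level in fibroblasts was 16894.5, 19435 and 17678 CPM, which was 1.15 times (1.15 to 1.15) the control at 1 week and 1.05 times (1.04 to 1.05) at 2 months. In endothelium the sum was 16660.5, 17983 and 16186 CPM, and in macrophages 18843, 19211 and 17638 CPM. At 2 months it was thus below the control in these latter classes, at 0.972 times (0.966 to 0.977) in endothelium and 0.936 times (0.930 to 0.942) in macrophages. Mitochondrial UMIs per nuclear respiratory chain UMI went from 1.14 to 1.95 and 2.07 in fibroblasts, from 1.36 to 2.13 and 2.33 in endothelium, and from 1.09 to 1.63 and 2.39 in macrophages.

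**Figure D1:**
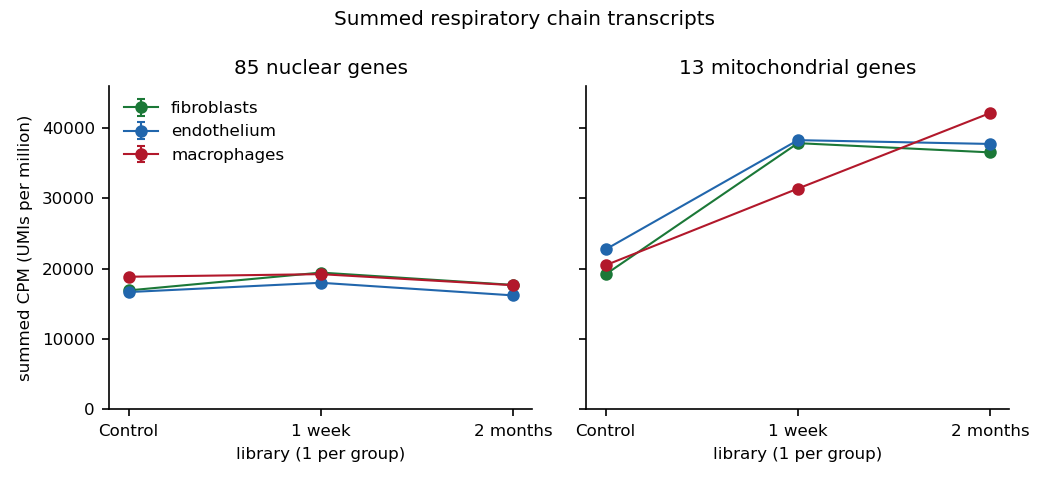
Summed CPM (y axis, UMIs per 1000000 UMIs of the class) of the 85 nuclear and 13 mitochondrial respiratory chain genes in the control, 1-week and 2-month libraries (x axis, 1 library per group), with 95% Poisson intervals that are smaller than the points. The mitochondrial sums of fibroblasts lie at 19185, 37862 and 36548 CPM, whereas their nuclear sums stay between 16894.5 and 19435 CPM.

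The shift was seen across single cells and was not limited to a tail. The mitochondrial genes took a median of 1.58% of the UMIs of a control fibroblast, with quartiles of 1.27% and 2.09%. The medians were 3.71% (quartiles 3.11% and 4.47%) at 1 week and 3.4% (quartiles 2.72% and 4.26%) at 2 months, so that the lower quartile of both operated libraries lay above the upper quartile of the control. Endothelial medians were 2.06%, 3.78% and 3.68%. The upper quartile of the control there was 2.98%, below the lower quartile at 1 week (3.16%) and at about that at 2 months (2.96%). Macrophage medians were 1.91%, 2.95% and 4.18%. The median share of the nuclear genes in fibroblasts was 1.63%, 1.91% and 1.69%, with overlapping quartiles. Across cells of 1 library, the nuclear and mitochondrial shares had a Spearman coefficient between -0.199 and 0.0877 in the 9 combinations of class and library, a description of cells that share a library and differ in depth.

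Because the filter on barcodes itself uses mitochondrial UMIs, it can cap these levels. It removed 0.995%, 5.47% and 3.42% of fibroblasts in the 3 libraries, and without it the log2 ratio of the fibroblast sum was 1.03 at 1 week and 0.95 at 2 months, against 0.98 and 0.93 with it. Malat1, a nuclear non-coding RNA, stood at 51996, 30260 and 45694 CPM in fibroblasts, and ribosomal protein genes summed to 124728, 149453 and 108267 CPM. Malat1 was thus lowest at 1 week in fibroblasts, and its level was also lower after surgery in endothelium (41788, 27655 and 30811 CPM) and macrophages (45222, 23562 and 35235 CPM). The part of RNA quality in the mitochondrial result was not tested. Barcodes of no class also had a higher mitochondrial sum after surgery, with 29018, 36767 and 33671 CPM.

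At 1 week the 13 mitochondrial genes did not move evenly. Genes were counted as higher when at least 25% above the control and as lower when at least 20% below it, a symmetric threshold on the log scale that marks size only, without a test. In fibroblasts 10 of the 13 were higher and 0 lower, where 30.4% of all genes with at least 50 UMIs were higher and 28.5% lower (58.8% in all). The 6 genes of complexes III, IV and V, together with mt-Nd3, mt-Nd4l and mt-Nd6 of complex I, were between 1.73 and 2.60 times the control, and the other 4 genes of complex I were nearer to it.

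mt-Co3, a core subunit of complex IV, had 2953 CPM in the control, 7653 CPM at 1 week and 6124 CPM at 2 months in fibroblasts, a ratio of 2.59 (2.58 to 2.61) at 1 week. mt-Co1, the catalytic core, had 2932, 6364 and 5469 CPM, a ratio of 2.17 (2.16 to 2.18), and mt-Co2, the entry point of electrons from cytochrome c, had 2324, 4931 and 4319 CPM, a ratio of 2.12 (2.11 to 2.14). All 3 complex IV genes were therefore higher at 1 week than at 2 months, and lowest in the control. mt-Atp6, which forms part of the proton channel of ATP synthase, had 3123, 7139 and 6733 CPM, a ratio of 2.29 (2.27 to 2.30). mt-Atp8, its small partner, had 67.1, 161 and 219 CPM, a ratio of 2.4 (2.31 to 2.49) at 1 week and 3.26 (3.15 to 3.38) at 2 months, the largest of the 13 in fibroblasts. The genes overlap on chromosome M (mt-Atp8 from 7766 to 7969, mt-Atp6 from 7927 to 8607), so reads at their junction cannot be assigned with certainty. mt-Cytb, the cytochrome b of complex III, had 2013, 3914 and 3958 CPM and was 1.94 times (1.93 to 1.96) the control at 1 week.

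Among the complex I genes, mt-Nd3 had 261, 678 and 744 CPM in fibroblasts and was 2.60 times (2.56 to 2.65) the control at 1 week. mt-Nd6, the single gene of the set on the opposite strand, had 15.5, 38.4 and 33.2 CPM, a ratio of 2.48 (2.30 to 2.68). mt-Nd4l had 296, 513 and 613 CPM, a ratio of 1.73 (1.70 to 1.77). The ends of mt-Nd4l and mt-Nd4 also overlap in the annotation, which leaves reads there uncertain. Those of mt-Nd5 and mt-Nd6 overlap on opposite strands, so reads there are uncertain only where strand was not used in counting. Whether the overlapping neighbours mt-Nd4l and mt-Nd4, or mt-Atp8 and mt-Atp6, differed in RNA level or in where UMIs were assigned was not tested. mt-Nd3, mt-Nd6 and mt-Nd4l contrasted with the 4 remaining complex I genes, which were closer to the control. mt-Nd1 had 1264, 1903 and 2112 CPM, a ratio of 1.5 (1.49 to 1.52) at 1 week. mt-Nd2 had 1511, 1704 and 2823 CPM, a ratio of 1.13 (1.12 to 1.14), mt-Nd4 had 2105, 2477 and 2868 CPM, a ratio of 1.18 (1.17 to 1.18), and mt-Nd5 had 320, 386 and 534 CPM, a ratio of 1.21 (1.18 to 1.23). For mt-Nd2 most of the difference from the control was seen only at 2 months, when it was 1.66 times (1.65 to 1.67) its 1-week level.

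The same genes stood lowest in the other classes at 1 week. In endothelium 10 of 13 were higher (background 28.1%) and 0 lower (background 26%), with 54.1% of all genes past the threshold. mt-Nd4 was at 2343 CPM in the control and 2239 CPM at 1 week, a ratio of 0.955 (0.942 to 0.969), and mt-Nd5 at 379 and 345 CPM, a ratio of 0.910 (0.879 to 0.943). In macrophages 9 of 13 were higher (background 25%) and 0 lower (background 31.7%), with 56.7% of all genes past the threshold. Macrophage mt-Nd2 was at 1521 and 1461 CPM, a ratio of 0.960 (0.943 to 0.978), mt-Nd4 at 2007 and 1814 CPM, a ratio of 0.904 (0.889 to 0.918), and mt-Nd5 at 371 and 306 CPM, a ratio of 0.825 (0.795 to 0.857). These 3 genes thus lay slightly below the control in macrophages, while mt-Co3 there was 1.92 times (1.90 to 1.95) and mt-Nd3 2.12 times (2.03 to 2.20) the control.

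**Figure D2:**
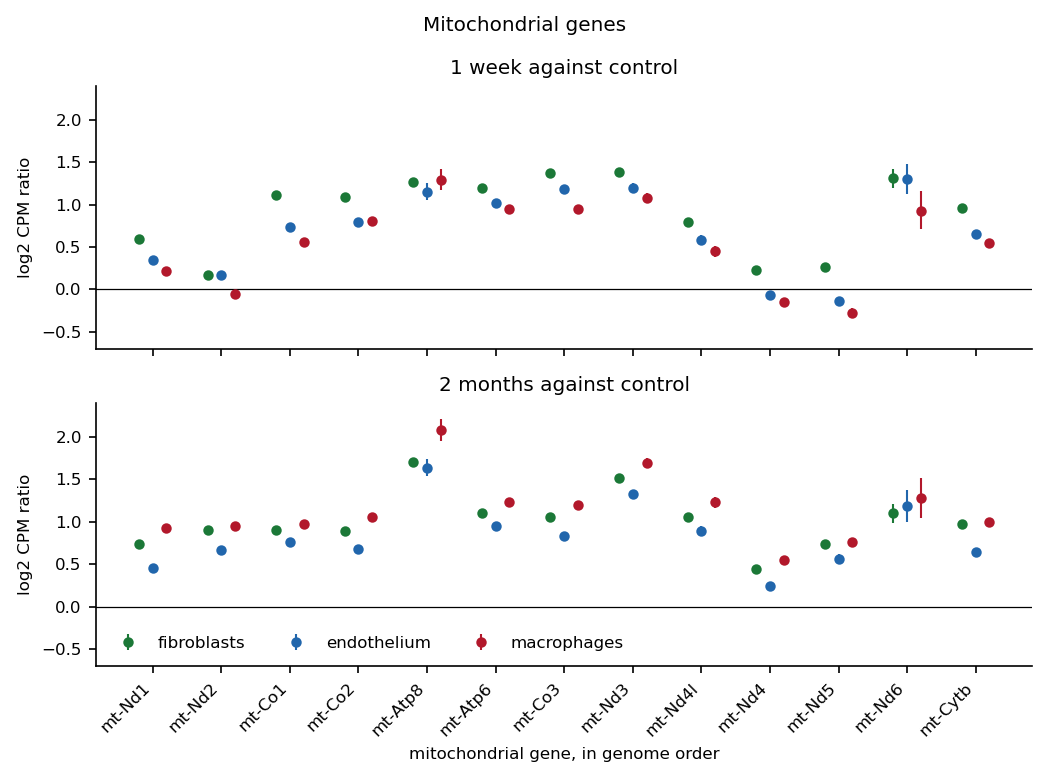
Log2 CPM ratio to the control (y axis) of each mitochondrial gene in genome order (x axis) at 1 week (top) and 2 months (bottom) in fibroblasts, endothelium and macrophages, with 95% counting intervals. At 1 week mt-Nd2, mt-Nd4 and mt-Nd5 lie between -0.28 and 0.27 while mt-Atp8 and mt-Nd3 lie above 1, and at 2 months all 13 genes lie above 0.

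By 2 months all 13 genes were higher than the control in fibroblasts (background 23.6%, and 42.1% in either direction) and in macrophages (background 22.5%, 41.5% in either direction), and 12 of 13 were in endothelium (background 24.9%, 39.4% in either direction). The exception was endothelial mt-Nd4, with 2343 CPM in the control and 2765 CPM at 2 months, a ratio of 1.18 (1.16 to 1.2). Macrophage ratios ran from 1.47 for mt-Nd4 to 4.23 (3.87 to 4.63) for mt-Atp8, whose level was 52.8, 130 and 223 CPM. Between 1 week and 2 months, macrophages had 10 of 13 genes higher (background 30.8%, 51.3% in either direction), with mt-Nd5 at 2.05 times (1.98 to 2.11) and mt-Nd2 at 2.01 times (1.98 to 2.04) the 1-week level. Fibroblasts had 3 of 13 (background 27.1%, 52.5% in either direction) and endothelium 3 of 13 (background 28.9%, 48.9% in either direction) higher, with endothelial mt-Co3 lower at 0.782 times (0.776 to 0.788; 1 of 13, background 20.1%).

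As 3′ libraries capture RNA by runs of A, the mitochondrial transcripts were also read for runs of A within their sequence, using a minimum of 6 that was set after the values were seen. Such runs occur in 5 of the 13 transcripts, mt-Nd1 (1 run), mt-Nd2 (3), mt-Co1 (1), mt-Nd4 (2) and mt-Nd5 (2). The first 4 genes in ascending order of the 1-week ratio in fibroblasts, mt-Nd2, mt-Nd4, mt-Nd5 and mt-Nd1, all hold one, and mt-Co1 holds one with a ratio of 2.17. The longest run of each (for mt-Nd4 the first of 2 equally long ones) is shown on the sense strand of GRCm38 chromosome M with 20 bases on each side, the run in capitals.
mt-Nd2, chrM:4032-4079: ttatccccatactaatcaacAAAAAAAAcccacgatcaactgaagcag
mt-Nd4, chrM:10207-10253: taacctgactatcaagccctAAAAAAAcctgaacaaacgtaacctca
mt-Nd5, chrM:12616-12662: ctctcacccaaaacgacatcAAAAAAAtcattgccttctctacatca
mt-Nd1, chrM:3600-3645: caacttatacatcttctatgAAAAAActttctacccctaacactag
mt-Co1, chrM:6096-6142: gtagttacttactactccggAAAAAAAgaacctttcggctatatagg
The other 8 transcripts have a longest run of 3 to 5. Length went with the runs: transcripts with a run have 957 to 1824 bases, the others 204 to 784, except mt-Cytb with 1144. At 2 months mt-Nd4, mt-Nd1 and mt-Nd5 were still lowest in fibroblasts. There mt-Nd2 had a log2 ratio of 0.902, beside mt-Co1 (0.899) and mt-Co2 (0.894, without such a run). The runs are given as a feature shared by these transcripts. The part of length, and where along a transcript the UMIs were captured, was not tested.

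For the nuclear genes, 25 of the 82 with at least 50 UMIs in fibroblasts were higher at 1 week than in the control, against 30.4% of all genes, and 6 were lower, against 28.5%. Their median log2 ratio was 0.15, and that of all 14582 genes tested was 0.02. The share of higher genes was thus at the background, and a smaller share of members than of genes at large was lower. The background was not matched to the members in expression level. Genes with few UMIs pass the threshold more easily by counting error. The part of level in shares below the background, here and in later paragraphs, was not tested. At 2 months 8 of 82 were higher (background 23.6%) and 5 lower (background 18.5%), with a median of 0.03.

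Of the 25 higher nuclear genes in fibroblasts at 1 week, 10 belonged to ATP synthase, 7 to complex I, 6 to complex IV and 1 each to complexes II and III. The 10 were out of 17 nuclear genes of ATP synthase (background 30.4%), and all 17 had a ratio above 1, with a summed ratio of 1.24. Atp5md, a small membrane subunit that helps to hold ATP synthase dimers together, had 153, 254 and 194 CPM in the control, 1-week and 2-month libraries, a ratio of 1.66 (1.62 to 1.71) at 1 week. Atp5g1 and Atp5g3 encode the same mature protein, the c subunit of the rotating ring. Atp5g1 had 210.5, 337 and 263 CPM, a ratio of 1.60 (1.57 to 1.64), and Atp5g3 had 112, 153 and 142 CPM, a ratio of 1.36 (1.32 to 1.41). Both peaked at 1 week, as did Atp5mpl, another small subunit, with 169, 244 and 171 CPM and a ratio of 1.44 (1.41 to 1.48).

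Complex V had the highest summed ratio of the 5 complexes in the other classes at 1 week as well. In endothelium 14 of 82 nuclear genes were higher (background 28.1%) and 5 lower (background 26%), and 7 of the 14 were among the 17 ATP synthase genes. Endothelial Atp5md had 156, 218 and 157 CPM, a ratio of 1.40 (1.33 to 1.47). In macrophages 10 of 82 were higher (background 25%) and 8 lower (background 31.7%), with 4 of the 10 in complex V, a share of its 17 genes just below the background, among them Atp5g1 at 222, 318 and 233 CPM, a ratio of 1.44 (1.37 to 1.5). The summed ratio of the complex was 1.17 (1.16 to 1.18) in endothelium and 1.12 (1.11 to 1.13) in macrophages. At 2 months it was between 0.968 and 1.05 in the 3 classes, and 6 of its 17 genes were lower than at 1 week by the threshold in each class (background 25.4% in fibroblasts, 20.1% in endothelium and 20.6% in macrophages). Macrophage Atp5mpl did not share this course, with 287, 270 and 231 CPM.

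Complex IV was the most uneven complex. Its 17 tested genes in fibroblasts ran from a log2 ratio of -2.76 to 1.98 at 1 week, and 6 were higher (background 30.4%) and 3 lower (background 28.5%). Cox4i1, the common form of a regulatory subunit, had 657, 837 and 701 CPM, a ratio of 1.27 (1.26 to 1.29), and Cox6c, a small membrane subunit, had 540, 839 and 719 CPM, a ratio of 1.55 (1.53 to 1.58). Cox8a, another common subunit, stayed near the control, with 628, 587 and 620 CPM and a ratio of 0.935 (0.922 to 0.948). Cox7a2l, which joins complexes III and IV into supercomplexes, was lower at both times in fibroblasts, with 319, 239 and 232 CPM and ratios of 0.747 (0.732 to 0.762) and 0.728 (0.713 to 0.742). In endothelium Cox7a2l had 421, 419 and 375 CPM, a ratio of 0.996 (0.964 to 1.03) at 1 week. Macrophage Cox6a1, the common form of its subunit, had 360, 251 and 297 CPM and was 0.697 times (0.669 to 0.725) the control at 1 week.

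Complex I showed members on both sides in each class. In fibroblasts 7 of its 36 nuclear genes were higher at 1 week (background 30.4%) and 3 lower (background 28.5%), both shares below the background, and its summed ratio was 1.05 (1.04 to 1.05). Ndufc2, a membrane-arm subunit, had 113, 166 and 126 CPM, a ratio of 1.47 (1.43 to 1.51), and in macrophages 125, 199 and 131 CPM, a ratio of 1.60 (1.5 to 1.70). Ndufa10, an accessory subunit, was higher in all classes, at 1.26 times (1.21 to 1.30) the control in fibroblasts from 72.7 and 91.2 CPM, 1.39 times (1.29 to 1.51) in endothelium and 1.40 times (1.29 to 1.53) in macrophages. Ndufb1-ps, listed as non-coding in GENCODE vM21, had 169, 230 and 213 CPM in fibroblasts, a ratio of 1.36 (1.33 to 1.39).

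On the lower side, Ndufs7, a core subunit that carries the last iron-sulphur cluster before ubiquinone, was below the control at 1 week in each class. Its ratio was 0.783 (0.759 to 0.807) in fibroblasts from 140 and 109.6 CPM, 0.702 (0.658 to 0.749) in endothelium from 125 and 87.8 CPM, and 0.663 (0.625 to 0.704) in macrophages from 166 and 110 CPM. Ndufa1, an accessory subunit needed for assembly of the membrane arm, had 192, 146 and 216 CPM in fibroblasts, so it was 0.759 times (0.740 to 0.779) the control at 1 week and 1.12 times (1.10 to 1.15) at 2 months. Ndufa6, an accessory subunit of the peripheral arm, had 190, 146 and 159 CPM in fibroblasts, with ratios of 0.768 (0.748 to 0.788) and 0.837 (0.817 to 0.859). Ndufa5, also of the peripheral arm, had 133.5, 102 and 115 CPM in endothelium, a ratio of 0.763 (0.718 to 0.812).

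The summed ratio of complex II, succinate dehydrogenase, was between 0.976 and 1.05 in all classes at both times. That of complex III was 1.10 (1.09 to 1.11) in fibroblasts, 1.05 (1.03 to 1.07) in endothelium and 0.958 (0.943 to 0.973) in macrophages at 1 week, and 1.03, 0.937 and 0.910 at 2 months. In complex II, Sdha, the flavoprotein that oxidises succinate, had 69.6, 55.9 and 69.5 CPM in fibroblasts, a ratio of 0.803 (0.770 to 0.839), at 1 week, and Sdhd, a membrane anchor, had 61.1, 78.7 and 72.5 CPM, a ratio of 1.29 (1.24 to 1.34). Sdhb, the iron-sulphur subunit, had 102, 103 and 89.6 CPM, and Sdhc, the other anchor, had 56.7, 59.2 and 54.9 CPM. Sdhd was the only one of the 4 past the threshold in fibroblasts at 1 week. In complex III, Uqcrfs1, the Rieske iron-sulphur protein, had 79.8, 72.6 and 61.7 CPM in fibroblasts and was 0.773 times (0.744 to 0.804) the control at 2 months, and Uqcrq, a small subunit, had 226, 283 and 288 CPM, a ratio of 1.27 at 2 months.

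**Figure D3:**
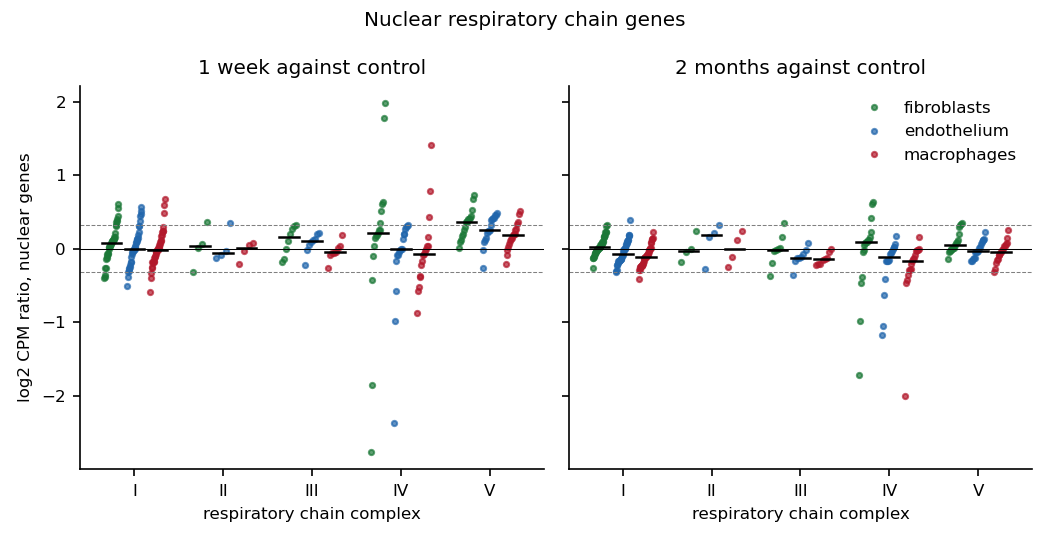
Log2 CPM ratio to the control (y axis) of each nuclear member with at least 50 UMIs, by complex (x axis) and class, at 1 week (left) and 2 months (right), with black bars at the median of each group and dashed lines at 25% above and 20% below the control. In fibroblasts at 1 week the 17 complex V genes lie between 0.02 and 0.73, and complex IV spreads from -2.76 to 1.98.

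At 2 months few nuclear members lay past the threshold in endothelium (1 of 81 higher, background 24.9%, and 5 lower, background 14.5%) and in macrophages (0 of 82 higher, background 22.5%, and 5 lower, background 19.1%). The endothelial gene above the threshold was Ndufa8, an accessory complex I subunit of the intermembrane space, with 157, 233 and 206 CPM and a ratio of 1.31 (1.24 to 1.39). Against 1 week, the lower side held 13 of 82 nuclear genes in fibroblasts (background 25.4%), 15 of 80 in endothelium (background 20.1%) and 15 of 82 in macrophages (background 20.6%). The higher side held 3 (background 27.1%), 0 (background 28.9%) and 1 (background 30.8%). The median log2 ratio of the nuclear genes to the control went from 0.15 to 0.03 in fibroblasts and from 0.09 to -0.05 in endothelium between 1 week and 2 months. In macrophages it went from 0.01 to -0.11, with 65 of 82 genes below 0 at 2 months.

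Among the tissue-restricted forms of complex IV, Ndufa4l2 showed the largest positive ratio. It encodes a paralogue of Ndufa4, a subunit of complex IV, and is known as a target of the hypoxia-inducible factor HIF-1 (chromosome 10 from 127514967 to 127517154). In fibroblasts it had 58.1 CPM (56.1 to 60.2) in the control, 229 CPM (226 to 232) at 1 week and 90.8 CPM (88.9 to 92.7) at 2 months. The ratios were 3.94 (3.80 to 4.10) and 1.56 (1.5 to 1.63). Its share of the UMIs of the pair Ndufa4 and Ndufa4l2 was 17.5% (17.0 to 18.1), 41.9% (41.4 to 42.3) and 24.3% (23.8 to 24.7), by exact binomial intervals. Ndufa4 itself had 274, 318 and 283 CPM, so the share moved mainly with Ndufa4l2. Macrophages had 16.2, 43.0 and 13.3 CPM of Ndufa4l2, a ratio of 2.65 (2.27 to 3.12) at 1 week, and endothelium had 59.7, 68.5 and 38.8 CPM, with a ratio of 1.15 at 1 week and 0.650 (0.586 to 0.720) at 2 months. The endothelial value at 1 week depended on the class, with a log2 ratio of -0.59 under stricter class thresholds and -0.01 without doublet calls, against 0.20. In macrophages, fibroblast markers (5 genes, none at 0) summed to 2966, 6269 and 3290 CPM. Rgs5, a pericyte gene that also marks cells with much Ndufa4l2, stood at 36.3, 93.2 and 9.0 CPM. The 4 markers of pericytes and smooth muscle, Rgs5 among them, summed to 192, 153 and 187 CPM. Their courses differed, with 85.8, 13.9 and 27.8 CPM for the smooth muscle gene Myh11 and 55.5, 37.1 and 144 CPM for Cspg4. Fibroblast markers and Rgs5 were thus highest at 1 week like Ndufa4l2, and the part of RNA from such cells in the macrophage value was not tested.

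Ndufa4l2 was higher at 1 week than in the control in each fibroblast subset examined in both libraries. Fibroblasts with at least 50 UMIs of Prg4, which encodes the lubricant lubricin, had 25.9, 381 and 72.9 CPM of Ndufa4l2. Those with at least 2 UMIs of Pi16, a marker of progenitor-like fibroblasts, had 58.6, 149 and 67.7 CPM, and those with at least 2 UMIs of Thbs4, an extracellular matrix gene, had 79.1, 244 and 121 CPM. All 3 sets were thus highest at 1 week, and the Prg4 set had the widest span. Fibroblasts with at least 10 UMIs of Acta2, the smooth muscle actin, had 232, 314 and 186 CPM. Chondrocyte markers (4 genes, none at 0) summed to 0.444, 386 and 28.0 CPM in fibroblasts, also highest at 1 week, and their part in the Ndufa4l2 result was not tested. Barcodes rich in the pericyte genes Rgs5 (at least 10 UMIs) and Notch3 (at least 1) had 595, 762 and 427 CPM, more than any of these. The 4 markers of pericytes and smooth muscle summed to 200, 162 and 233 CPM in fibroblasts, none at 0. Among them Rgs5 had 84.5, 91.5 and 100 CPM and the smooth muscle gene Myh11 52.0, 8.85 and 33.3 CPM. Without any cell with a UMI of Rgs5, the log2 ratios of Ndufa4l2 in fibroblasts were 1.82 and 0.44, against 1.98 and 0.64.

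Cox6b2, the testis form of the subunit encoded by Cox6b1, followed a similar course in fibroblasts at a low level. It had 4.0 CPM (3.48 to 4.57), 13.8 CPM (13 to 14.6) and 6.13 CPM (5.65 to 6.64), ratios of 3.45 (2.98 to 4.01) and 1.53 (1.31 to 1.80). Its share of the Cox6b pair was 1.18%, 3.5% and 1.66%. In endothelium it had 6.21, 6.21 and 4.65 CPM and in macrophages 9.24, 7.14 and 6.67 CPM, so only fibroblasts had more at 1 week. Cox4i2, the form of Cox4 known from lung and from low oxygen, had 8.28, 11.9 and 4.18 CPM in fibroblasts, with ratios of 1.43 (1.28 to 1.61) and 0.505 (0.441 to 0.579). In endothelium it had 16.8, 11.3 and 7.47 CPM and in macrophages 9.07, 4.94 and 2.25 CPM, lower at each time than in the control, except that the macrophage log2 ratio at 1 week was 0.27 without doublet calls, against -0.88. Pericyte-rich barcodes had 192, 281 and 144 CPM of Cox4i2, and among cells without Rgs5 the fibroblast log2 ratio at 1 week was 0.19 in place of 0.52.

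The muscle and brown fat forms behaved differently. Cox8b, the counterpart of Cox8a in heart, skeletal muscle and brown fat, had 10.7 CPM (9.87 to 11.6) in control fibroblasts, 1.58 CPM (1.33 to 1.87) at 1 week and 3.26 CPM (2.91 to 3.64) at 2 months. Its ratios were 0.147 (0.121 to 0.178) and 0.304 (0.264 to 0.349), the lowest of the members tested in fibroblasts. Cox7a1, the corresponding form of Cox7a2, had 3.56, 0.984 and 2.74 CPM, ratios of 0.277 (0.211 to 0.359) and 0.769 (0.637 to 0.931). Both genes were therefore lowest at 1 week, and their 2-month levels were 2.06 times (1.68 to 2.54) and 2.78 times (2.17 to 3.6) those at 1 week. Skeletal muscle markers (6 genes, 1 to 2 at 0) summed to 2.83, 5.15 and 2.83 CPM in fibroblasts, and 5 adipocyte markers, none at 0, to 6.52, 9.04 and 2.65 CPM. Single markers took different courses. Adipoq had 0.870, 0.609 and 0.369 CPM and Car3 2.57, 1.81 and 1.53 CPM, both highest in the control like Cox8b and Cox7a1, whereas Cfd had 2.94, 6.29 and 0.686 CPM and the muscle gene Tnnt3 1.43, 3.72 and 1.01 CPM. The log2 ratios of Cox8b were -2.74 and -1.68 when cells with a UMI of Adipoq, Plin1, Car3 or Cfd were left out, against -2.76 and -1.72. Myh11, a smooth muscle gene, had 52.0, 8.85 and 33.3 CPM in fibroblasts, lowest at 1 week like Cox8b and Cox7a1. Rgs5, Notch3 and Cspg4 did not fall in this way. They had 84.5, 11.5 and 51.8 CPM in the control and 91.5, 11.9 and 49.8 CPM at 1 week. The part of carried-over skeletal muscle, smooth muscle or fat RNA in the Cox8b and Cox7a1 results was not tested.

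Cox6a2, the muscle form of Cox6a1, was found mainly in macrophages, where it had 7.94 CPM (6.39 to 9.74), 13.6 CPM (12.2 to 15.2) and 5.92 CPM (4.62 to 7.47) from 91, 323 and 71 UMIs. Fibroblasts had 3, 19 and 12 UMIs of it and endothelium 1, 3 and 1, in deeper or similar sums. At 1 week the macrophage level was 1.72 times (1.36 to 2.20) the control and its share of the Cox6a pair 5.16% (4.62 to 5.73), against 2.15% (1.74 to 2.64) in the control. Cox7a1 was also a macrophage gene in these data, with 16.3, 10.9 and 18.3 CPM. Cox7b2 and Cox8c stayed under 50 UMIs in every class.

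**Figure D4:**
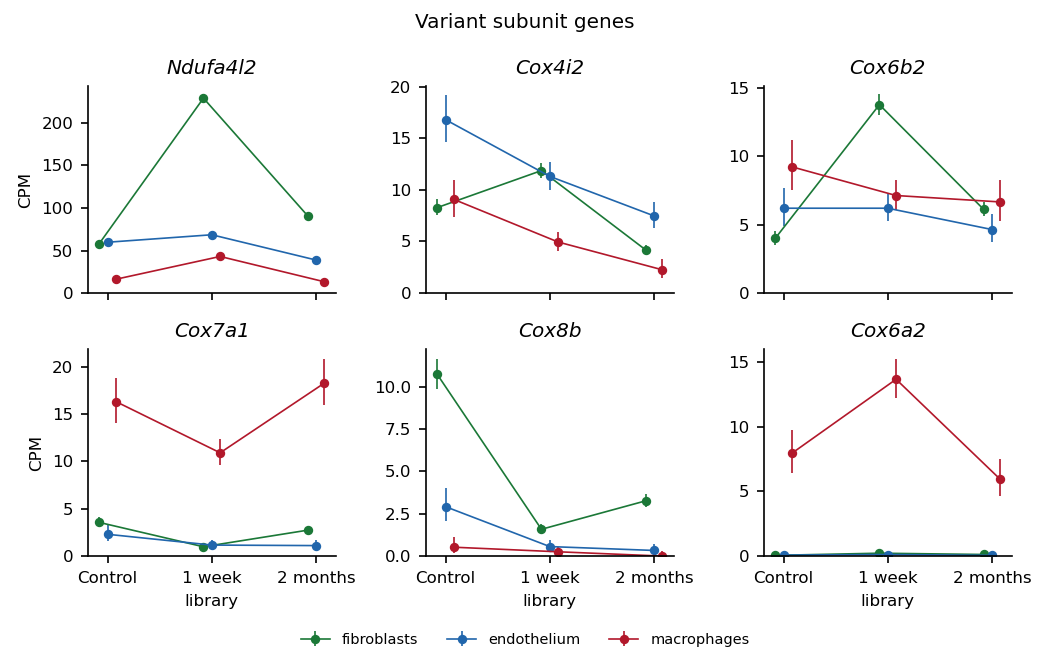
CPM (y axis, each panel on its own scale from 0) of 6 tissue-restricted complex IV genes in the control, 1-week and 2-month libraries (x axis) by class, with 95% Poisson intervals. Ndufa4l2 in fibroblasts peaks at 229 CPM at 1 week, Cox8b in fibroblasts lies at 10.7 CPM in the control and 1.58 CPM at 1 week, and Cox6a2 is seen mainly in macrophages.

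Differences between the classes could be tested, since every library held all of them. The 9 sums of 3 classes in 3 libraries were fitted with edgeR's quasi-likelihood test with the library as a block, and p-values were Benjamini-Hochberg adjusted over all 15845 genes. The 3 libraries serve as replicates here but are also 3 conditions, and some barcodes fall in more than 1 class (23 to 51 macrophage barcodes per library are also fibroblasts by the rule).

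Macrophages had higher levels of many nuclear members than endothelium. With adjusted p under 0.05, 60 of 83 nuclear genes were higher (background 24.9%) and 3 lower (background 25.7%, and 50.6% in either direction), with a median log2 fold change of 0.38 against -0.06 over all genes. Against fibroblasts, macrophages had 23 higher (background 27.6%) and 11 lower (background 30.9%, 58.5% in either direction), a median of 0.11. Endothelium against fibroblasts had 2 higher (background 21.2%) and 49 lower (background 26.8%, 47.9% in either direction), a median of -0.29. Endothelium thus had the lowest nuclear levels of the classes. Leaving out the 2-month library reduced the called genes from 63 to 31, from 34 to 9 and from 51 to 9 in these contrasts, and leaving out the control library reduced the 34 to 18. The share of all genes called in these reduced fits is not given, so the loss cannot be set against genes at large. The 13 mitochondrial genes were seldom called, with 2, 1 and 2 in the same order. They were mt-Nd1 and mt-Nd2 (log2 0.39 and 0.36, macrophages over endothelium), mt-Nd4l (-0.37, macrophages against fibroblasts), and mt-Nd6 and mt-Nd2 (0.50 and -0.36, endothelium against fibroblasts).

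Cox6a2, with the levels given above, had the largest difference, a log2 fold change of 6.08 ± 0.28 (SE, adjusted p = 7.68e-06, edgeR) between macrophages and fibroblasts and 6.98 ± 0.36 (adjusted p = 1.86e-05) between macrophages and endothelium. The macrophage value was above those of both other classes in 3 of 3 libraries. Cox7a1 was higher in macrophages by 2.82 ± 0.32 (adjusted p = 0.000317, edgeR) than in fibroblasts and by 3.58 ± 0.35 (adjusted p = 0.000237) than in endothelium, again in 3 of 3 libraries. Cox8b was higher in fibroblasts than in macrophages, which had 0.523, 0.254 and 0 CPM, by a log2 fold change of -4.04 ± 0.61 (macrophages over fibroblasts, adjusted p = 0.00125, edgeR). Ndufa4l2 followed the order fibroblasts, endothelium, macrophages, with -1.14 ± 0.33 (adjusted p = 0.0254, edgeR) for endothelium over fibroblasts and -1.17 ± 0.33 (adjusted p = 0.0235) for macrophages over endothelium. In the control library fibroblasts and endothelium had nearly the same level of Ndufa4l2, 58.1 and 59.7 CPM, so this first difference lay in the operated libraries. It was no longer called without the 1-week library (-0.78) or the 2-month library (-0.99), nor was the second without the 2-month library (-1.12) or with stricter classes (-0.89).

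Common subunits differed by less. Cox5a, a matrix-side subunit of complex IV, was higher in macrophages than in fibroblasts by 0.85 ± 0.09 (SE, adjusted p = 0.000265, edgeR). Succinate dehydrogenase was higher in macrophages than in endothelium for all 4 genes, from 0.34 ± 0.10 (adjusted p = 0.0309, edgeR) for Sdha to 0.77 ± 0.08 (adjusted p = 0.000266) for Sdhb. The complex I genes Ndufa13 and Ndufv3 were lower in endothelium than in fibroblasts, each by a log2 fold change of -0.90 (adjusted p = 0.000177 and 0.000285, edgeR). Ndufa8 went the other way, higher in endothelium than in fibroblasts by 0.62 ± 0.10 (adjusted p = 0.00242, edgeR) and lower in macrophages than in endothelium by -0.70 ± 0.10 (adjusted p = 0.00125). Its endothelial level was above that of both other classes in 3 of 3 libraries.

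**Figure D5:**
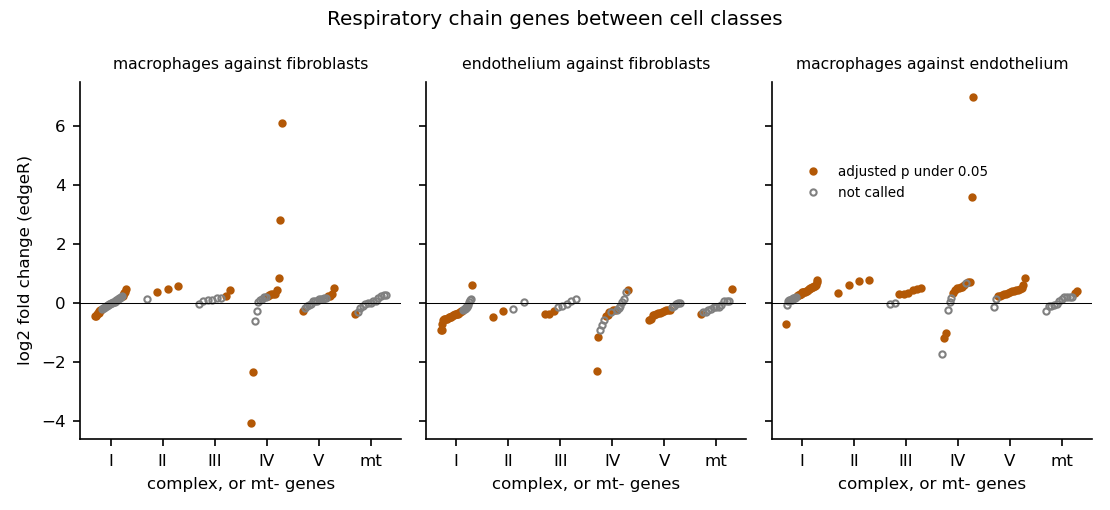
Log2 fold changes from edgeR (y axis) of nuclear members by complex and of mitochondrial members (x axis), with a panel for each contrast between classes. Each point is 1 gene, and genes called at adjusted p under 0.05 are marked. The macrophage contrasts reach 6.98 for Cox6a2, and the endothelium against fibroblast points lie mostly below 0.

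Promoters of 67 of the 85 nuclear members were matched in the RefSeq table of GRCm38.p6 (250 bases before to 50 after the gene start). The motif of nuclear respiratory factor NRF1 is GCGCA, any base and GCGC, on either strand. It was in 17 of 67, or 25.4%, against 1402 of 27025 genes, or 5.19%. The 27025 were all genes with a listed promoter, not matched to the members in base composition or expression. The part of these in the motif shares was not tested. CCGGAAGT, an ETS motif (reverse complement ACTTCCGG), was in 7.46% of members and 4.31% of genes. A pattern looser than the MEF2 site (CTA, any 4 bases and TAG, which reads the same on both strands) was in 1.49% and 4.23%. Its only match among members, CTACTTTTAG of Cox5b, has a C among the 4 middle bases, where MEF2 sites hold A or T. Genes with the NRF1 motif were found on both sides of the control. Ndufa8 and Ndufa6 are shown because both hold it, while in endothelium at 1 week Ndufa8 was 1.48 times (1.41 to 1.56) and Ndufa6 0.804 times (0.768 to 0.842) the control. Cox8b is shown as the member with the lowest ratios to the control in fibroblasts, without any of the 3 motifs in this window. All lie on the minus strand and are printed 5′ to 3′ along the gene, with motif matches in capitals.
Ndufa8, chr2:36049289-36049588: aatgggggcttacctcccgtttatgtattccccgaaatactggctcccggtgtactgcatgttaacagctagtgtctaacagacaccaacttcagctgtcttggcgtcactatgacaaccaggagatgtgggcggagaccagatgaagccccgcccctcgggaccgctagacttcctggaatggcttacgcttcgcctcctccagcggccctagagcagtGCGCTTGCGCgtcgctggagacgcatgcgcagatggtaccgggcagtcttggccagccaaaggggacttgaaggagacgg
Ndufa6, chr15:82354242-82354541: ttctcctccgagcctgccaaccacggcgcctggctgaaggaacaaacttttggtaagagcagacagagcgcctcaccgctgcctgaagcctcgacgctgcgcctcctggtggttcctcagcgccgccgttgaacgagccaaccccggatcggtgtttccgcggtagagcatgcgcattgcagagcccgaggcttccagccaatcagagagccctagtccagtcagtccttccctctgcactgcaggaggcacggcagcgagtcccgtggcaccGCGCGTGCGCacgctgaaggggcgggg
Cox8b, chr7:140900397-140900696: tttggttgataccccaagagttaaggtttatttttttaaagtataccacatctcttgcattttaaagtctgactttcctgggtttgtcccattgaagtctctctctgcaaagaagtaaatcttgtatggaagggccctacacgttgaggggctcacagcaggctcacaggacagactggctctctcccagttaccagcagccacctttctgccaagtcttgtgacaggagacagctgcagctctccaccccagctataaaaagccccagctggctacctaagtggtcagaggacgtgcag

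Genes that serve the respiratory chain without being subunits were described in fibroblasts for comparison. Of 75 mitochondrial ribosome genes, which translate the mitochondrial messages, 22 were higher and 4 lower by the same threshold at 1 week, with a median log2 ratio of 0.21 against 0.02 for all genes (background 30.4% higher and 28.5% lower). The share of higher genes was thus near the background and that of lower genes below it. At 2 months 5 were higher (background 23.6%) and 3 lower (background 18.5%). Mrpl34 had 46.7 CPM in the control and 78.5 CPM at 1 week, a ratio of 1.68 (1.61 to 1.76), and Mrps6 had 70.4 and 49.5 CPM, a ratio of 0.703 (0.672 to 0.734). Of 44 assembly factors 8 were higher and 5 lower at 1 week, both shares below the background of 30.4% and 28.5%. Cox20, which chaperones mt-Co2, had 111 and 59.4 CPM, a ratio of 0.535 (0.515 to 0.555), and Cox11, which delivers copper to complex IV, had 9.04 and 14.1 CPM, a ratio of 1.56 (1.40 to 1.74).

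Of 13 regulators of mitochondrial biogenesis, 2 were higher and 2 lower at 1 week, again below the background of 30.4% and 28.5%. Ppargc1a, which encodes the coactivator PGC-1alpha, had 1.00 CPM in control fibroblasts, 2.52 CPM at 1 week and 3.0 CPM at 2 months, ratios of 2.52 (1.86 to 3.46) and 3.0 (2.24 to 4.09). Its relative Ppargc1b had 1.5, 0.550 and 1.08 CPM, a ratio of 0.367 (0.251 to 0.532) at 1 week. Both rest on few UMIs, 54, 215 and 293 for Ppargc1a and 81, 47 and 105 for Ppargc1b. Of 14 citric acid cycle genes 5 were higher and 1 lower at 1 week, near the background of 30.4% on the higher side and below the 28.5% on the lower. The highest ratio was that of Idh2, the mitochondrial NADP-dependent isocitrate dehydrogenase, with 47.0, 90.1 and 37.7 CPM and ratios of 1.92 (1.83 to 2.00) and 0.802 (0.762 to 0.843). Ucp2, an uncoupling protein family member, had 51.3, 29.2 and 15.2 CPM. Its ratio was 0.569 (0.539 to 0.601) at 1 week and 0.297 (0.278 to 0.316) at 2 months. Macrophage markers (6 genes) in the fibroblast class fell in the same order, with a sum of 147, 65.3 and 47.6 CPM. Neutrophil markers (4 genes) there took the opposite course, with 47.9, 92.6 and 200 CPM. The part of RNA from such cells in the Ucp2 result was not tested.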

How the data were processed

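Single-cell 3′ RNA libraries were analysed from control mice and from mice 1 week and 2 months after DMM, 1 library per group. Each deposited matrix lists raw UMI counts by gene and barcode, without normalisation. Cell Ranger 5.0.0 (control, 1 week) and 5.0.1 (2 months) made them, per the file headers, whereas the submitters' processing notes name Cell Ranger 6.0.1 and mm10. Per the labels' protocols, tissue was digested with trypsin (0.25%, 30 min) and then collagenase (300 U/mL, 30 min) before live cells were sorted.

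The filters of 500 genes and 10% mitochondrial UMIs left 8099, 12316 and 9782 barcodes. Classes followed UMI thresholds of Pdgfra, Cdh5, Ptprc and C1qa, without clustering. Scrublet doublet calls (313, 507 and 460 barcodes) were kept and removed in an alternative. UMIs were summed per class and library and scaled to CPM, with exact Poisson intervals for levels, conditional binomial intervals for ratios and Clopper-Pearson intervals for shares, all at 95%. PCR and sampling of mice are not covered by them. Genes with at least 50 UMIs in the compared sums entered counts, and background shares were not matched to the members in expression level. The 1-week and 2-month comparisons share the control library. Because CPM are shares of a class total, a higher mitochondrial share lowers all other values slightly. Genes with near-identical copies or pseudogenes are uncertain where counting could split them.

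Class contrasts used edgeR 4.0.16 (quasi-likelihood, TMM, filterByExpr, library as block) in R 4.3.3, with SE taken as the absolute log2 fold change over the square root of F, and DESeq2 1.42.0 as an alternative. The edgeR calculation was tested on simulated sums that differed between libraries in depth only, and the DESeq2 alternative was not. Ndufa4 and Ndufa4l2 were counted with complex IV. Named genes were all mitochondrial members, the 5 highest and 5 lowest nuclear ratios per class and comparison with the control, the 5 called members with the largest fold change per direction and contrast, the Sdh genes and the pairs of common and tissue-restricted forms, of which the text describes a part. The pathway lists were named by their 2 highest and 2 lowest ratios in fibroblasts. The members and lists were chosen with earlier results of these data known. Other software was Python 3.11.15, scanpy 1.11.5, numpy 2.4.6, scipy 1.17.1, pandas 2.3.3 and matplotlib 3.10.9.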

Additional observations from a re-analysis of the deposited data

Results flagged for a closer look

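Some members went opposite ways in different classes under the same comparison. None of these differences between classes was tested, since each group is 1 library. Cox4i2 had a log2 ratio to the control of 0.52 in fibroblasts at 1 week, against -0.57 in endothelium and -0.88 in macrophages. The macrophage value was 0.27 with doublet calls removed, and the fibroblast value was 0.19 without cells holding Rgs5, so the opposite directions depend on which cells are kept. Cox6b2 had 1.79 in fibroblasts and -0.37 in macrophages at 1 week, and 0.62 in fibroblasts, -0.42 in endothelium and -0.47 in macrophages at 2 months. Ndufa4l2 had 0.64 in fibroblasts and -0.62 in endothelium at 2 months.

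Signal also appeared in barcodes outside the 3 classes. Passing barcodes of no class (2015, 3860 and 2444 cells) had a mitochondrial sum 1.27 times the control at 1 week and 1.16 times at 2 months. Passing barcodes with at least 10 UMIs of Rgs5 and 1 of Notch3 (173, 667 and 271 cells), of which some may also be in a class, had 1.35 times and 1.52 times the control.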

How the results depend on the processing

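Over 13 settings, the reported one included, the ratio of the mitochondrial sum to the control stayed between 1.91 and 2.08 at 1 week and between 1.80 and 1.94 at 2 months in fibroblasts, 1.54 to 1.76 and 1.51 to 1.70 in endothelium, and 1.37 to 1.60 and 1.87 to 2.14 in macrophages. A fold of 1.5 in place of the 25% threshold left, in both directions together, of the nuclear genes, 9, 4 and 5 in fibroblasts (1 week and 2 months against control, 2 months against 1 week), 2, 3 and 3 in endothelium and 6, 1 and 5 in macrophages, and for the mitochondrial genes 1 between the operated libraries in both fibroblasts and endothelium. In endothelium, centring on the median gene gave 10 nuclear genes at 2 months against the control and 25 against 1 week, and CPM without mitochondrial and ribosomal protein UMIs gave 23 against 1 week. At least 500 UMIs left 3 genes in endothelium and 2 in macrophages at 2 months against the control. The share of all genes past the threshold under these settings is not given, so these counts cannot be set against genes at large. The cause was not tested beyond the construction of these settings. Of the values of single genes under an alternative, 2899 stayed within their counting error or kept their call, 898 moved further, 21 lost their call and 4 were reversed. Of the reversed ones, Cox4i2 in endothelium at 2 months against 1 week was reversed to 0.92 in stricter classes and 0.33 without cycling cells, Cox6b2 there to 0.044 in stricter classes, and macrophage Cox4i2 at 1 week to 0.27 with doublet calls removed.

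The library block pairs classes from the same pooled tissue. With no replicate block, the nuclear calls were 13 (macrophages against fibroblasts), 14 (endothelium against fibroblasts) and 35 (macrophages against endothelium), and mitochondrial calls were 0 in each. Leaving out 1 library gave 9 to 25, 9 to 40 and 31 to 54 nuclear calls and 0 to 3, 0 to 2 and 0 to 2 mitochondrial calls. For macrophages against fibroblasts, mitochondrial calls were 2 with DESeq2 size factors, 3 with DESeq2, 2 with no filter and 2 with doublet calls removed, and for endothelium against fibroblasts 4 with no filter. None of these counts has the share of all genes called under the same setting beside it, so they describe the members only. The alternatives without Rgs5 or adipocyte gene UMIs were chosen after seeing the data.

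With 1 library per group, neither mouse nor preparation effects can be told apart from DMM or, at 2 months, from age. Members at a few CPM, such as Cox8b, Cox6b2 and Cox4i2, rest on few UMIs and on the purity of classes set by single genes.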
